A study of Mus musculus with 10 samples.

Results

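Mediator is a multi-subunit coactivator that links transcription factors bound at enhancers to RNA polymerase II at promoters. Its core is built from head, middle and tail modules around a scaffold subunit, and a separable kinase module docks on the core and blocks its contact with the polymerase. In embryonic stem cells Mediator is known for its dense occupancy at the enhancers of pluripotency genes, where it works together with cohesin. The members described here are the protein-coding genes whose GENCODE vM21 symbol is Med followed by a number (with or without a final l), together with Cdk8, Cdk19 and Ccnc. This name rule, which uses no measured value, found 33 of the 55487 genes in the tables. They comprise 7 head, 9 middle, 1 scaffold, 9 tail and 7 kinase module genes.

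The series holds 10 samples of E14, a mouse embryonic stem cell line. Its 7 R-loop samples, made by MapR or BisMapR or as their controls, were not analysed here. The 3 RNA-seq replicates form 1 group: E14 cells in medium with serum, LIF, a GSK inhibitor and a MEK1/2 inhibitor, whose total RNA was depleted of ribosomal RNA before directional library preparation. The labels name no genetic change or further treatment in these cells, so no contrast between conditions exists, and they do not say whether the replicates were separate cultures. Errors and p-values below therefore measure the spread between these 3 libraries, which may be technical.

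Replicate 1 was the deepest library with 11420425 estimated counts, ahead of replicate 2 with 6467405 and replicate 3 with 5787357. The 33 Mediator genes together held 0.168%, 0.155% and 0.12% of them. The markers fitted the stated cell type. All 6 pluripotency markers had a mean of at least 30.5 TPM (a level per transcript length, scaled by the authors to a fixed total in each library). Nuclear protein-coding genes held 19.5%, 16.2% and 14.8% of the TPM total in replicates 1, 2 and 3, and 75.4%, 75.1% and 68.8% of the counts. TPM levels here are therefore lower than on a scale over protein-coding genes alone. The 8 early lineage markers summed to 1.92, 1.99 and 1.17 TPM in replicates 1, 2 and 3, and none reached a mean of 1 TPM. Eomes (78, 62 and 52 counts) and Gata4 (47, 19 and 12 counts) were nevertheless detected, and the others had at most 5 counts in any replicate. The 6 fibroblast markers summed to 4.57, 4.33 and 1.79 TPM. Most of this was Thy1 at 2.50 ± 1.15 TPM (SD, n = 3). Pdgfrb was also detected, with 203, 96 and 55 counts, and Col1a1 had 20, 8 and 3. Col1a2 had 0, 0 and 2 counts, while Col3a1 and Dcn had 0 counts in every replicate. The part of these other cells in the results below was not tested. In bulk RNA, fewer cells that express a gene and less RNA per cell cannot be told apart.

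The promoter sequences of Mediator genes were described first. RefSeq promoter windows on GRCm38.p6, running from 250 bases before to 50 after the annotated start, were matched by symbol for 28 of the 33 genes, in 32 windows. Cdk19, Med8, Med23, Med24 and Med30 were not matched. The Mediator windows were richer in CpG than protein-coding windows in general. That background includes genes not expressed in these cells, and a comparison with expressed genes alone was not made. The median was 20 CpG per window of 300 bases, against 13 over 21262 windows. The ratio of observed to expected CpG exceeded 0.6 in 27 of 32 Mediator windows, or 84.4%, and in 47.6% of all windows. The upstream sequences below, 5′ to 3′ with each CpG in capitals, show this for the 4 genes with an exon-free stretch of 100 bases among Med21 (the highest member by TPM) and the Med12 and Med13 paralogue pairs. Med21 lies at chr6:146642447-146642546 (plus strand), Med12 at chrX:101273930-101274029 (plus), Med13 at chr11:86357603-86357702 (minus) and Med13l at chr5:118560579-118560678 (plus).
Med21: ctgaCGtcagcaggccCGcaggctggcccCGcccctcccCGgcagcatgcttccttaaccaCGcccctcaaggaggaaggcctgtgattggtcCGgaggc
Med12: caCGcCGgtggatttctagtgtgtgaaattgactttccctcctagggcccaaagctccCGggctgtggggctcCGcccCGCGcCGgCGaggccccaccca
Med13: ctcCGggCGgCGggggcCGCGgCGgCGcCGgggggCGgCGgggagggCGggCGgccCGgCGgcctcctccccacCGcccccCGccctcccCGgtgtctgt
Med13l: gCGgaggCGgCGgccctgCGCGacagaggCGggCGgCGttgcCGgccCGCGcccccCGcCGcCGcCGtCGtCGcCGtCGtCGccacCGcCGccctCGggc

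These stretches held 6 CpG in Med21, 8 in Med12, 17 in Med13 and 23 in Med13l. The full window of Med13l held 61 CpG, the most among the Mediator windows. The fewest were 3, in a window at a further start of Med27, and 4, in 1 of the windows of Med10. The lowest member by TPM had a CpG-rich window: that of Med12l held 30 CpG, above the Mediator median, at a mean of 0.643 TPM.

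Exact words of 10 promoter motifs were searched on both strands of the windows. The ETS word CCGGAAG was in the windows of 8 of 28 Mediator genes (28.6%) and of 12.9% of 17491 protein-coding genes. The GC box GGGCGG was in 19 (67.9%, against 49.2%), the CCAAT word in 11 (39.3%, against 42.3%) and the TATA word TATAAA in 3 (10.7%, against 14.8%). The YY1 word AAGATGG was in 4 (14.3%, against 7.18%) and the E-box CACGTG in 4 (14.3%, against 8.91%). The Ronin word ACTACAA was in 2 (7.14%, against 4.19%) and the CRE TGACGTCA in 1, that of Med21 (3.57%, against 2.54%). A palindromic NRF1 word of 10 bases was in none of them, against 1.47% of all genes, and a palindromic word of 10 bases centred on CGCG was also in none, against 0.755%. A match describes the letters of a window and is no evidence of binding. The shares over all protein-coding genes again include genes not expressed in these cells. The 4 ETS words outside annotated exons and before the start are shown with their flanks, the word (or its reverse complement) in capitals. They lie at chrX:12762170-12762220 (minus strand, Med14), chr9:15279994-15280044 (minus, Med17), chr2:84678288-84678338 (plus, Med19) and chr14:73509972-73510022 (plus, Med4).
Med14: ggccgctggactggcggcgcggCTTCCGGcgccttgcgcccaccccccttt
Med17: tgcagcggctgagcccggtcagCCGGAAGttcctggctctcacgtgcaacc
Med19: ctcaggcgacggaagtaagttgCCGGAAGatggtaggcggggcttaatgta
Med4: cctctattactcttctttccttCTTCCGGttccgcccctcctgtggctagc

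In Med19 the ETS word runs into the YY1 word, so those 2 matches share letters. The 4 genes belong to the scaffold, head and middle modules.

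A mean of at least 1 TPM was reached by 32 of 33 Mediator genes, against 44.2% of 21884 nuclear protein-coding genes. The exception was Med12l, with 141, 73 and 24 estimated counts in replicates 1, 2 and 3, which is above the floor of 3 counts in each. The median Mediator gene had 7.65, 5.53 and 4.83 TPM in replicates 1, 2 and 3. The median of the 9667 protein-coding genes with a mean of at least 1 TPM was 7.09, 5.57 and 4.38 TPM. On the log2(TPM + 1) scale the Mediator median was 2.79 ± 0.29 (SD, n = 3) and that of the expressed genes 2.72 ± 0.29. The Mediator median was the higher in replicates 1 and 3 and the lower in replicate 2. Of the 33 genes, 10 had a mean above 10 TPM, 8 from 5 to 10 and 15 under 5.

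**Figure D1:**
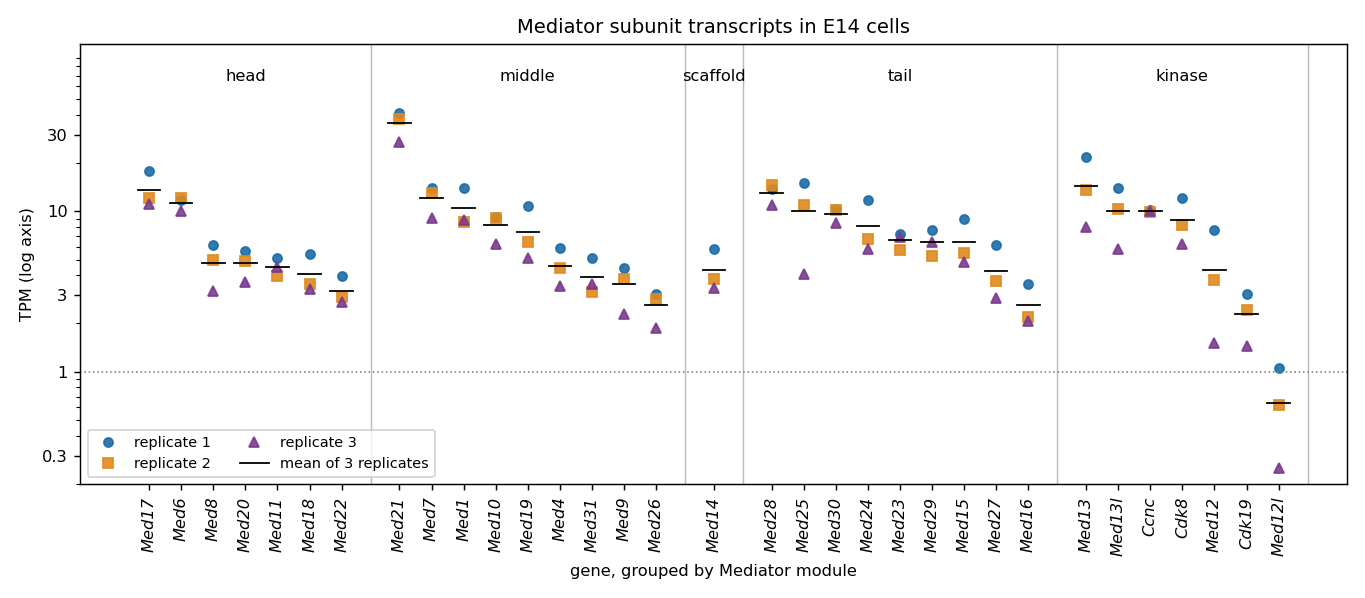
TPM on a log axis of each Mediator gene in the 3 replicates (points), with the mean as a bar, grouped by module and ordered by mean. Med21 lies above every other gene, Med12l below, and replicate 1 is the highest replicate for 31 of 33 genes, against 86.6% of expressed protein-coding genes.

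The head module forms the jaw that contacts RNA polymerase II. Med17, its largest subunit, had 17.7, 12.1 and 11.1 TPM in replicates 1, 2 and 3, a mean of 13.6 ± 3.59 (SD, n = 3). Med6, which connects head and middle, had 11.7, 12.1 and 10.1 TPM. These 2 genes stood apart from the rest of the head: their lowest replicate was above the highest replicate of each of the other 5. Those 5, namely Med8, Med20, Med11, Med18 and Med22, had means from 3.21 TPM (Med22) to 4.78 TPM (Med8), and their ranges over the replicates overlapped. Med18 and Med20 form a dimer on the movable jaw and had means of 4.08 and 4.74 TPM. Med11 and Med22, which pair in the head, had 4.51 and 3.21 TPM.

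The middle module, which joins the head and tail and moves when the polymerase binds, held the largest spread of the core. Med21, the partner of Med7 in the hinge of the middle module, had 41.1, 37.6 and 27.0 TPM in replicates 1, 2 and 3. Med7 had 13.98, 13.0 and 9.12 TPM. The ratio of Med21 to Med7 was 2.94, 2.90 and 2.96 in the 3 replicates, although both genes were lowest in replicate 3. Every replicate of Med21 was above every replicate of the other 32 genes, and Med21 was at the 92.0 percentile of expressed protein-coding genes. Counted per length of the longest annotated transcript, it was again first of the 33. Med21 overlaps by 278 bp Tm7sf3, a gene on the other strand with a mean of 18.8 TPM, and whether counting used strand is not stated, so reads of the shared stretch cannot be told apart.

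Med1, the subunit that nuclear receptors bind, had 14.01, 8.53 and 8.81 TPM. Med10 and Med19 had means of 8.22 and 7.43 TPM. Med4 and its partner Med9 had 4.58 and 3.52 TPM, and Med31 had 3.92 TPM. Med26, which binds elongation factors and is found in the form of Mediator without the kinase module, was lowest of the middle module at 3.06, 2.85 and 1.88 TPM. Med26 and Med9 each have 1 transcript in the tables, so their levels do not depend on dividing reads among isoforms. The level of Med10 depended on the length scaling. In CPM (the share of a library's counts) per kilobase of the longest annotated transcript, Med10 had a mean of 3.90. That was below Med26, at 6.92.

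Med14, the scaffold that holds head, middle and tail together, had 5.82, 3.77 and 3.32 TPM. It ran at 0.786, 0.697 and 0.71 of the core median, so it was below the middle of the core in every replicate.

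The tail module receives most of the activators. Of the subunits that link tail and head, Med28 had 13.8, 14.5 and 10.9 TPM, Med30 10.3, 10.2 and 8.39 TPM, and Med29 7.61, 5.29 and 6.47 TPM. Med27 was lower at 6.14, 3.70 and 2.90 TPM. The order of Med28 and Med27 depended on the length scaling. In CPM per kilobase of the longest annotated transcript, Med28 had 5.78, 7.15 and 6.25 in replicates 1, 2 and 3. Med27 had 7.63, 7.25 and 6.15, so it was higher in replicates 1 and 2. Med30 and Med29 stayed above Med27 on that scale. Among the activator-binding subunits, Med25, the target of the viral activator VP16, had 15.1, 10.9 and 4.06 TPM. Med15, which binds SREBP and SMAD proteins, had 8.91, 5.53 and 4.83 TPM. Med23, which binds ELK1, had 7.20, 5.70 and 6.88 TPM, and Med24 had 11.8, 6.67 and 5.81 TPM. Med16 was lowest of the tail at 3.53, 2.19 and 2.06 TPM. The module medians were 4.74 ± 1.02, 6.94 ± 2.10 and 6.81 ± 1.82 TPM (SD, n = 3) in head, middle and tail. Within each replicate the head median, at 5.66, 4.91 and 3.65 TPM, was below that of the middle, at 9.25, 6.42 and 5.14 TPM, and of the tail, at 8.91, 5.70 and 5.81 TPM. Middle and tail had no common order over the 3 replicates.

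The order of the genes was similar in the 3 libraries, with Spearman's rho over the 33 genes of 0.929 for replicates 1 and 2. For replicates 1 and 3 it was 0.817, and for replicates 2 and 3 it was 0.906. This is a description over genes that share each library. Neighbours in the order mostly could not be separated. Of 32 neighbouring pairs by mean TPM, the ranges over replicates were apart in 2, between Med21 and Med13 at the top and between Cdk19 and Med12l at the bottom.

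The core was less spread in level than genes at large, as a description with no test. The SD of log2(TPM + 1) across the 26 core genes was 0.78 ± 0.03 (SD over replicates, n = 3), against 1.46 ± 0.02 across expressed protein-coding genes. In replicates 1, 2 and 3, 21, 19 and 19 of the 26 core genes lay within 2-fold of the core median. Those more than 2-fold above it in every replicate were Med21 and Med17, and Med16 was below the window in every replicate. From Med16 to Med21 the core means spanned 13.6-fold.

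The other parts of the transcription machinery were compared from fixed lists. The 13 RNA polymerase II subunits had a median of 15.6 ± 1.02 TPM (SD, n = 3), and the 18 general transcription factors 10.1 ± 0.696 TPM. Both lists were above the Mediator core, at 5.83 ± 1.41 TPM, in each replicate. The SD across genes of log2(TPM + 1) was 1.04 ± 0.07 in the polymerase and 0.82 ± 0.06 in the general factors, so the core was about as even as the general factors. Within the polymerase, Polr2k and Polr2l, small subunits shared among the polymerases, were low at 2.15 ± 0.519 and 3.21 ± 0.638 TPM. Cdk7, the kinase of TFIIH, had 21.5, 15.1 and 14.3 TPM and was above Cdk8 in each replicate.

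All 17 genes of partner complexes and all 11 activators reached a mean of 1 TPM. The cohesin subunit Rad21 had 34.4, 29.5 and 20.8 TPM, and the cohesin loader Nipbl 8.10, 6.19 and 4.95 TPM. Aff4, the scaffold of the super elongation complex that Med26 recruits, had 54.4, 32.6 and 32.6 TPM, above every Mediator gene by mean. Of the activators, Srebf1 and Srebf2, which bind Med15, had means of 16.3 and 15.5 TPM, whereas Elk1, which binds Med23, had 2.96 ± 1.21 TPM and Smad3 2.07 ± 0.843 TPM. Etv5, a known Med25 ligand, had 30.8, 23.2 and 15.2 TPM.

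**Figure D2:**
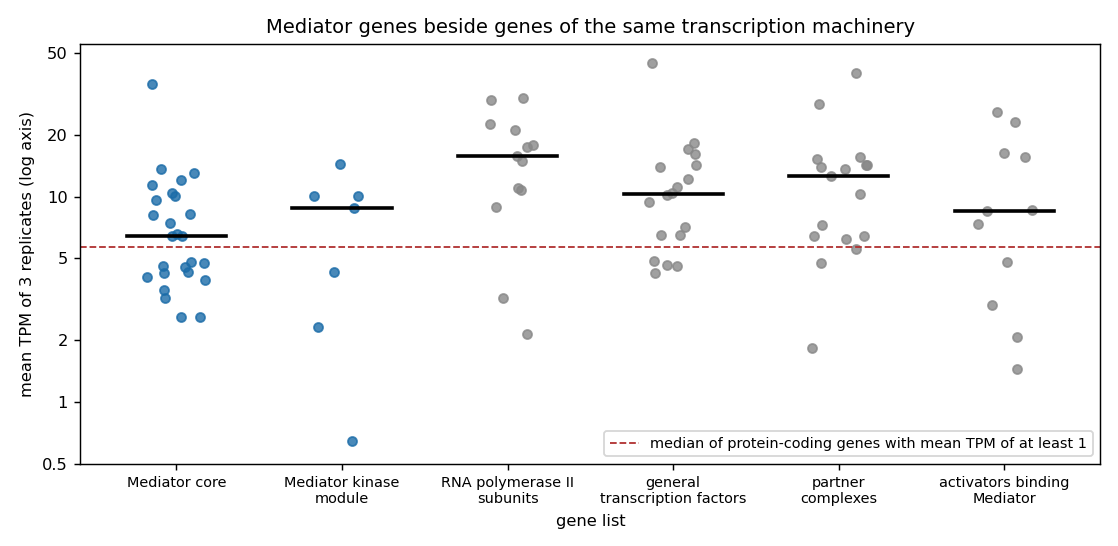
Mean TPM over 3 replicates (log axis) of each gene in 6 lists, with a bar at the median of these means in each list. The dashed line, 5.68 TPM, is the mean over replicates of the median of expressed protein-coding genes, and the Mediator core straddles it while most polymerase subunits lie above.

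The kinase module differed from the core by the presence of paralogues. Each of its kinase, Med12 and Med13 positions can be filled by either of 2 gene products, and cyclin C alone fills the cyclin position. Cdk8 had 12.1, 8.18 and 6.22 TPM and its paralogue Cdk19 3.05, 2.42 and 1.45 TPM in replicates 1, 2 and 3. Cdk8 was higher in all 3 replicates, with a log2 ratio of 1.95 ± 0.17 (SD, n = 3), and held 79.4% ± 2.00 (SD, n = 3) of the TPM of the pair. In CPM, the share of a library's counts without regard to length, the log2 ratio was 1.07 ± 0.29 (SD, n = 3). The TPM values of the pair did not overlap. Med12, which activates the kinase, had 7.65, 3.75 and 1.52 TPM, and Med12l 1.06, 0.62 and 0.25 TPM. The log2 ratio of this pair was 2.68 ± 0.15 (SD, n = 3), and Med12 was higher within each replicate although the lowest Med12 value was close to the highest Med12l value. An exact sign-flip test over 3 replicates cannot give a two-sided p under 0.25, so none is given for these ratios.

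Med13 and Med13l, which tether the module to the core, were both well expressed and close to each other. Med13 had 21.6, 13.5 and 7.92 TPM, and Med13l 13.99, 10.3 and 5.82 TPM. The log2 ratio in TPM was 0.49 ± 0.12 (SD, n = 3) in favour of Med13. Its direction depended on the length scaling. In CPM it was -0.10 ± 0.16 (SD, n = 3), and per kilobase of the longest annotated transcript it was -0.28. The tables give different lengths for the 2 genes: the abundance-weighted transcript length of Med13 was 42.0%, 49.6% and 54.0% of its longest transcript of 10546 nt in replicates 1, 2 and 3, whereas that of Med13l was 85.1%, 81.6% and 78.5% of 9296 nt. Which of the 2 genes is higher is therefore not settled by these data.

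Summed by position, the module was unequal in its transcripts. The Med13 position had 35.6, 23.7 and 13.7 TPM, the kinase position 15.1, 10.6 and 7.67 TPM, the cyclin position 10.2, 9.85 and 9.98 TPM and the Med12 position 8.71, 4.37 and 1.77 TPM. The Med13 position was 4.09, 5.43 and 7.76 times the Med12 position in TPM. In summed CPM the Med13 position had 479, 425 and 281 and the Med12 position 77.6, 72.2 and 35.9. On that scale their ratio did not rise from replicate 1 to replicate 2. Cyclin C was level in TPM while the other 3 positions were lowest in replicate 3. The TPM ratio of Ccnc to the kinase position was 0.676, 0.929 and 1.30 in replicates 1, 2 and 3. In CPM Ccnc was also lowest in replicate 3, at 51.3, 55.2 and 44.6, and the kinase position had 104, 92.7 and 72.5. The level course of Ccnc thus depends on the length scaling. The median of the kinase module exceeded that of the core by 0.40 ± 0.13 (SD, n = 3) in log2(TPM + 1). In CPM, which does not divide by length, this difference was 1.18.

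**Figure D3:**
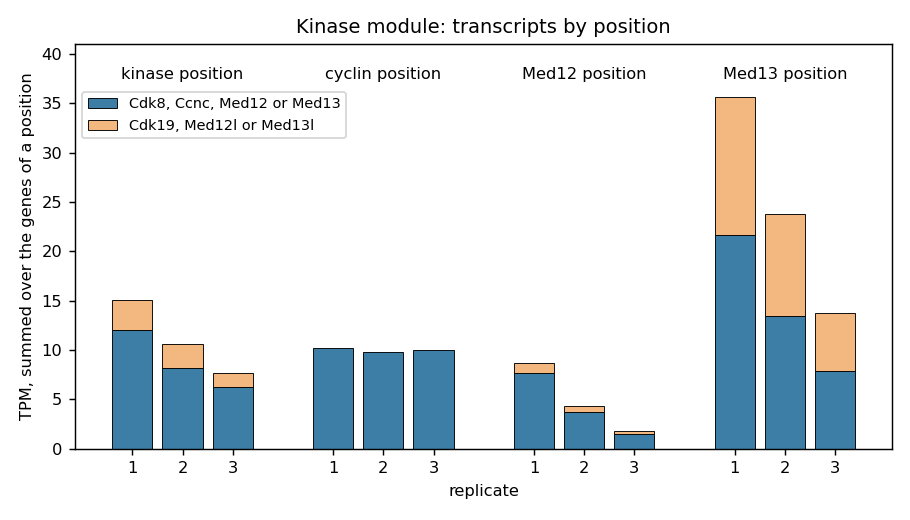
TPM in each replicate summed over the genes that can fill each position of the kinase module, with bars from 0 divided by paralogue. Cdk8 and Med12 make up most of their positions, and Med13 and Med13l share theirs. The cyclin position is level in TPM, at 9.85 to 10.2, but is lowest in replicate 3 in CPM (not shown).

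The replicates were then compared gene by gene, to see whether any Mediator gene spread further than genes of similar abundance. By the edgeR goodness-of-fit test 0 of 33 passed an adjusted p under 0.05 (Benjamini-Hochberg), against 1.84% of 12577 genes tested. At an unadjusted p under 0.05 there were 3 of 33, against 6.96% of genes tested. They were Med12l (adjusted p = 0.236 by edgeR), Med25 (adjusted p = 0.279) and Med12 (adjusted p = 0.454), and all 3 were lowest in replicate 3. On CPM scaled by edgeR's TMM factors, Med25 had 69.7, 67.8 and 36.9, Med12 62.4, 59.4 and 34.7, and Med12l 11.8, 11 and 4.52 in replicates 1, 2 and 3. Replicates 1 and 2 were close in each of these genes, and without replicate 3 edgeR gave 0 members with an unadjusted p under 0.05. At the other end, Med21 had 68.9, 72.5 and 70.3 TMM-scaled CPM. Listed genes that passed the test included Polr2a, the largest polymerase subunit, and the coactivator Crebbp (adjusted p = 3.8e-06 and 0.00803 by edgeR). Both were also lowest in replicate 3, Polr2a at 28.3, 20.7 and 4.49 TPM and Crebbp at 7.95, 6.60 and 2.02 TPM.

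The deviation of replicate 3 went with transcript length. Over the 33 genes, Spearman's rho between length and the log2 deviation from the gene's mean was positive in replicate 1 (0.766) and replicate 2 (0.171) and negative in replicate 3 (-0.666). Over 11205 protein-coding genes tested it was 0.387, 0.165 and -0.388. These are descriptions: the genes share the libraries, and the 3 deviations of a gene sum to 0. In replicate 3 the 8 Mediator genes over 3000 nt had a median deviation of -0.29 and the 10 genes under 1200 nt one of 0.04, against -0.09 and 0.15 in protein-coding genes of those lengths. Med25, at a mean length of 2391 nt, was an exception with a deviation of -0.59. With the length trend of each library removed, the smallest adjusted p of a member by edgeR was 0.187, that of Med25, and Med12 moved to an adjusted p of 0.913. The part of RNA quality in this was not tested.

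**Figure D4:**
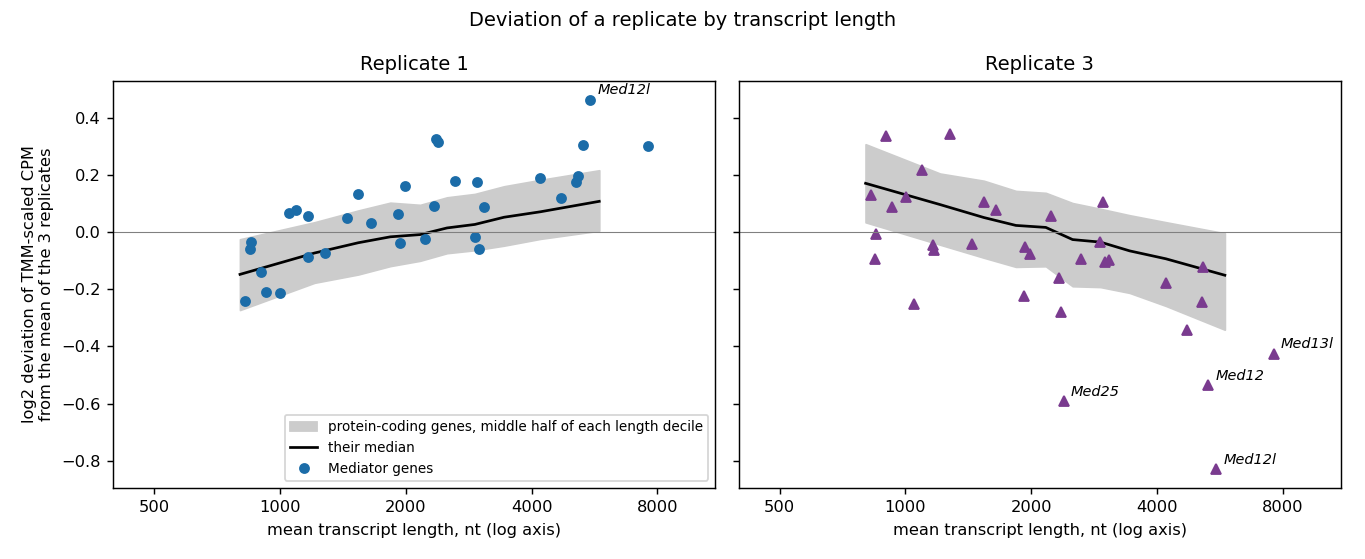
Log2 deviation of TMM-scaled CPM from the mean of 3 replicates against mean transcript length (log axis), in replicate 1 (left) and replicate 3 (right). Points are Mediator genes, and the line and band are the median and interquartile range of protein-coding genes by length decile. The points slope the same way as the other genes, and Med12l, Med25, Med12 and Med13l lie lowest in replicate 3. The first 3 of these are below the band, while Med13l, at 7597 nt, lies beyond its end at 5808 nt.

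The TPM differences between libraries were larger than those in counts for most members, and they had 3 separable parts. As a share of the mean, the SD over replicates was larger in TPM than in TMM-scaled CPM in 28 of 33 members. The median share was 28.3% in TPM and 12.5% in TMM-scaled CPM. It was 23.8% in TPM over expressed protein-coding genes and 12.0% in TMM-scaled CPM over those tested. TPM is the count divided by effective length and scaled to a fixed library total, so a log2 TPM ratio is the sum of a count part, a length part and a part common to all genes of the library. Between replicates 3 and 1 the common part was -0.47, and the median Mediator gene differed by -0.71 in TPM and by -0.28 in CPM. Nuclear protein-coding genes held 19.5% of the TPM total in replicate 1 and 14.8% in replicate 3. How far this share enters the common part was not tested. All 33 Mediator genes were lower in replicate 3 than in replicate 1 in TPM, and 28 were lower in CPM. The same share over all genes was not counted. Of the 3 replicates, replicate 3 was the lowest in TPM for 27 of 33 members and 79.4% of expressed protein-coding genes. On TMM-scaled CPM it was the lowest for 20 members, against 41.5% of 11205 protein-coding genes tested. Over 6808 genes with at least 100 counts in each replicate the medians were -0.60 in TPM and -0.15 in CPM, so genes in general were also lower in replicate 3 on both scales.

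For some members the length part was near the count part in size, or larger. Med12 had a log2 TPM ratio of -2.33 between replicates 3 and 1, of which -1.04 came from counts, -0.83 from length and -0.47 from the common part. Its weighted transcript length was 3729, 5670 and 6514 nt in replicates 1, 2 and 3, between annotated transcripts of 448 and 6940 nt. Med12l, by contrast, took -1.57 of its -2.08 from counts, with lengths of 5051, 6384 and 5153 nt. In Ccnc and Med23 the length part ran the other way. Ccnc counts gave -0.20 and its length 0.64, as the weighted length was 2254, 2056 and 1496 nt. Med23 counts gave -0.38 and its length 0.78, with lengths of 3616, 3447 and 2162 nt. In Ccnc the positive length part and the negative count and common parts summed to a log2 TPM ratio of -0.03.

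**Figure D5:**
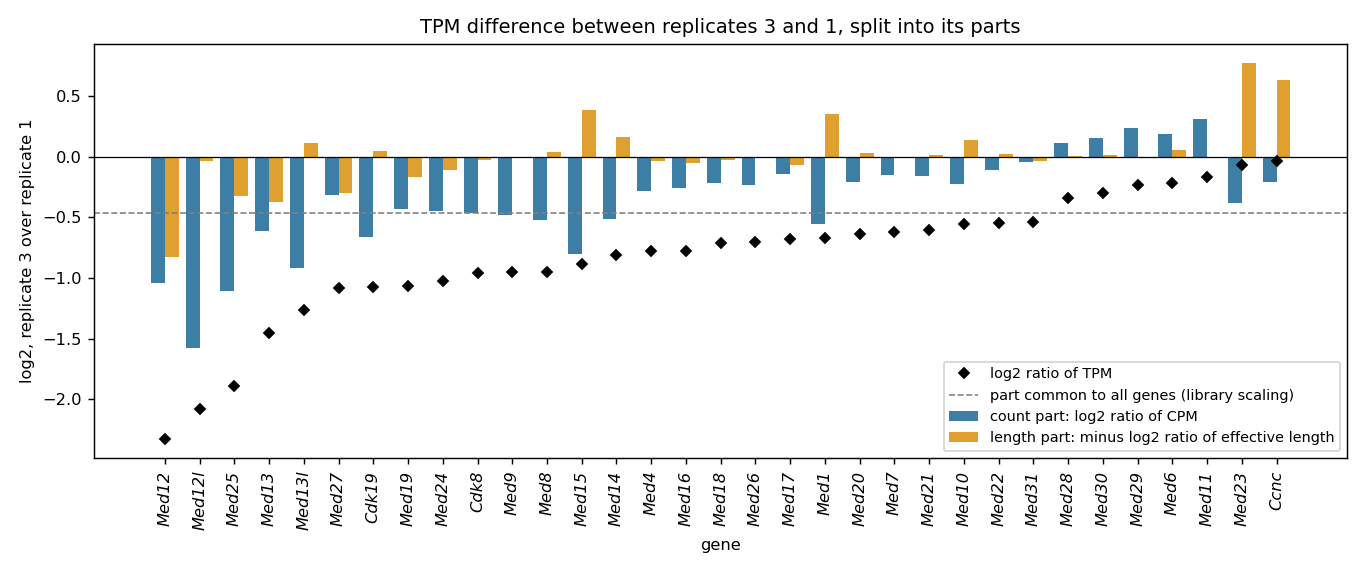
For each Mediator gene, the log2 ratio of replicate 3 to replicate 1 in TPM (diamonds) and its count part and length part (bars), with the part common to all genes as a dashed line. Med12 combines a negative count part and a negative length part, and in Med23 and Ccnc a positive length part offsets the others.

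The largest effective length of a gene exceeded its smallest by more than 25% in 9 of the 30 Mediator genes with several transcripts, against 22.9% of 9005 expressed protein-coding genes with several transcripts. The 9 were Med12 (1.78-fold), Med23 (1.71), Ccnc (1.55), Med1 (1.45), Med24 (1.38), Med15 (1.31), Med13 (1.30), Med27 (1.27) and Med12l (1.27). These 9 included 4 of the 7 kinase module genes and 0 of the 7 head genes. The tables give the weighted length and not the level of each transcript, so which isoforms differed is not known.

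Reads that match more than one gene can give fractional estimated counts. The shares of other genes with whole counts or with an overlapping expressed gene were not counted, so the numbers here describe the members only. In 28 of 33 genes the estimated counts were whole in every replicate, within 0.005. Cdk8, Med12, Med20, Med23 and Med24 had fractional counts, for example 815.8, 376.8 and 299.8 in Cdk8. Cdk8 holds a processed pseudogene, Gm15739, on its own strand, at 0.723 TPM, and Med24 a small nucleolar RNA gene, Gm22059, at 53.5 TPM. Med20 is overlapped on its own strand by Gm20517, at 0.827 TPM. Med23 holds the small nuclear RNA gene Gm23410, which was detected in replicate 1 only, at 9.2, 0 and 0 TPM in replicates 1, 2 and 3. The values of the 5 genes with fractional counts are less certain, since their reads could be divided with other genes. Genes on the other strand with a mean of at least 1 TPM overlapped 4 members, namely Med21, Med19, Ccnc and Med13.

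In the genome, Mediator genes lay on 17 chromosomes. Chromosome 11 held 7 of the 33 genes and 8.17% of expressed protein-coding genes. Med12 and Med14 are on the X chromosome. Another annotated gene started within 1000 bp on the other strand in 11 of 33 Mediator genes, against 28.8% of expressed protein-coding genes, a share near the background. In 6 of the 11 the partner had a mean of at least 1 TPM, a share that was not counted over other genes. The levels within these pairs could differ widely: Med22 had 3.21 TPM beside the ribosomal protein gene Rpl7a at 295 TPM, with starts 87 bp apart. Med29 had 6.46 TPM beside Paf1, which encodes an elongation factor subunit, at 8.20 TPM, and Med20 4.74 TPM beside Bysl at 3.75 TPM. Further pairs with an expressed partner included Med19 with Tmx2 and Med21 with Tm7sf3.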

How the data were processed

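Gene tables of 3 RNA-seq replicates were analysed. Per the file headers, the authors computed and deposited an estimated count, TPM and FPKM for each gene, with the abundance-weighted transcript length and the effective length. The column names are those of RSEM, and the submitters' processing notes name STAR, RSEM, Bowtie2, SAMtools and deepTools and the build mm10, without versions or roles. The annotation release and strand setting are not given in the sources used here. FPKM was not used. Samples were grouped and numbered by their titles.

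Symbols, types and coordinates came from GENCODE vM21 (GRCm38), which matched 55141 of 55487 gene IDs. The members and gene lists were chosen with earlier results of these data known. All members and listed genes could be named, and Gm15739, Gm22059, Gm20517, Gm23410 and the neighbouring genes were chosen after their values were seen. CPM was computed from the estimated counts, and a fold is a ratio of TPM unless another scale is named. Levels were summarised as log2(TPM + 1). A floor of 3 counts is 0.263, 0.464 and 0.518 CPM in replicates 1, 2 and 3 and covers counting error only.

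Variation between replicates was tested on rounded counts with edgeR 4.0.16 in R 4.3.3 (intercept-only model, TMM, filterByExpr, trended dispersion, goodness-of-fit of the deviance, Benjamini-Hochberg over all genes), after the procedure was tested on simulated data. Size factors from DESeq2 1.42.0 were an alternative. Tables, ratios and rank correlations were made in Python 3.11.15 with pandas 2.3.3, scipy 1.17.1 and numpy 2.4.6, and plots with matplotlib 3.10.9.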

Additional observations from a re-analysis of the deposited data

How the results depend on the processing

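The 8 summary results were recomputed under 53 alternatives, 3 of which (counts per kilobase of the longest transcript) were chosen after seeing the data. The allowed spread was the SD over replicates of the reported value, or a fixed fold for results that are counts. Of the 53, 38 stayed within it, 13 moved the value and 2 reversed it. Among the alternatives that kept all replicates, 14 stayed within it. All 24 that left out 1 replicate stayed within it. For results with an SD this was fixed in advance, since a mean of 2 of the 3 replicates always lies within that SD. It therefore says nothing about their stability. The counts were 32 members expressed and 0 varying with each replicate left out. The log2 ratio of Med13 to Med13l reversed to -0.10 in CPM and to -0.28 per longest transcript. With CPM, the median of all members became 5.04, the kinase minus core difference 1.18, the spread of the core 0.92 and the ratio of Cdk8 to Cdk19 1.07. Per longest transcript that ratio was 1.64 and that of Med12 to Med12l 3.26. With 1 added to TPM these 2 ratios were 1.56 and 1.54. Rescaling TPM over protein-coding genes gave a median of 5.18 and a core spread of 0.871. A pseudocount of 0.1 gave a core spread of 0.88. Without Med12l, Med13l and Cdk19 the kinase minus core difference was 0.555. A limit of 5 TPM left 18 members expressed, while a limit of 0.5 TPM, a limit of 1 CPM and rescaled TPM each gave 33. No member passed the variability test under the 6 alternatives, by edgeR, while the calls over all genes, 232 in the reported fit, were 231 with DESeq2 size factors, 289 without a filter, 184 with the length trend removed, and 89, 63 and 93 without replicate 1, 2 or 3. Apart from the constructions named, the cause was not tested. Depth limits the low end, where Med12l rests on 24 counts in replicate 3.

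No paired analysis was possible because the analysed tables belong to 1 group, so replicate numbers pair no samples here.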
